A study of Mus musculus with 4 samples.

Results

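A set of 5 secreted factors that draw in or sustain lymphocytes were examined in cells sorted as cancer-associated fibroblasts: the chemokines Cxcl13, Ccl19 and Cxcl12, the B cell survival factor Tnfsf13b (BAFF) and the lymphocyte growth factor Il7. They are 5 of the 16305 genes of the deposited tables, were picked by name with earlier results of these data in view, and were found in the tables of all 4 tumours. The study profiled single cells from 4 untreated APTKA tumours grown orthotopically in the colon of female C57BL6J mice, with 1 multi-well plate for each tumour. There is 1 group of tumours and no control group, so the comparisons run between cell groups and between wells within a tumour. The labels do not state whether the tumours came from separate mice. Any p-value reflects only how the difference between wells with and without a factor varied among these tumours, with variances moderated across genes. Each value is a number of transcripts per 10000 transcripts of the wells concerned, counted once per molecule by CEL-Seq2 identifiers, and the mean is over tumours with its SD.

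In lymph nodes and in the lymphoid follicles of the gut, stromal cells place lymphocytes by secreting chemokines. Cxcl13 binds Cxcr5 on B cells and is made by follicular dendritic and marginal reticular cells, Ccl19 binds Ccr7 on T cells and mature dendritic cells and is made by fibroblastic reticular cells of the T cell zone, and Cxcl12 binds Cxcr4 on most leukocytes and is made by many fibroblasts. Tnfsf13b keeps B cells alive through its receptor Tnfrsf13c, and Il7 does so for T cells and innate lymphoid cells through Il7r. Lymphotoxin beta receptor signalling through the NF-kB subunits RelB and p52 maintains Cxcl13 and Ccl19 in lymphoid organs.

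The promoters of the 2 chemokines that mark lymphoid stroma are shown because NF-kB subunits are the known regulators of both genes. They are RefSeq sequences (GRCm38.p6), 5′ to 3′ on the strand of the gene, from 250 bases before the RefSeq start and without bases past the outermost GENCODE start, which leaves 38 bases for Ccl19. Cxcl13 is at chr5:95956689-95956938 on the plus strand, and Ccl19 at chr4:42756578-42756615 on the minus strand. Capitals mark TATAAA, the core of a TATA box, searched on both strands together with the NF-kB consensus.
Cxcl13: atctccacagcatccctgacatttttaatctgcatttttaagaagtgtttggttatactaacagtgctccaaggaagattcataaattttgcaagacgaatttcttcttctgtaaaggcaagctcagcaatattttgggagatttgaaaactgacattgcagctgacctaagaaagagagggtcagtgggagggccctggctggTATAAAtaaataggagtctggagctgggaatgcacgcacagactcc
Ccl19: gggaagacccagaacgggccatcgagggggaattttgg
Cxcl13 held 1 TATAAA shortly before its start, and 4063 of 32851 RefSeq promoters of mouse entries (12.4%) hold it in the 250 bases before the start, a longer window than that of Ccl19. The NF-kB consensus was found in 7.25% of those promoters and in 0 of the stretches searched for Cxcl13, Ccl19, Cxcl12 and Tnfsf13b, which says only that these letters are not in these windows. By GENCODE (GRCm38), the genes lie at chr5:95956951-95961068 (Cxcl13, plus strand), chr4:42754525-42756577 (Ccl19, minus strand), chr6:117168535-117181367 (Cxcl12, plus strand), chr8:10006467-10039072 (Tnfsf13b, plus strand) and chr3:7569994-7613760 (Il7, minus strand), and each row of the tables names the same chromosome. RefSeq also lists pseudogene copies of Ccl19, and how the deposited counting dealt with reads shared with them is not given in the sources used here, so the level of Ccl19 is uncertain in that respect.

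Of 1536 wells, 740 were kept (43 of them in tumour 1), with a floor of 1000 transcripts per well and a ceiling of 30% for those of chrM, with a median depth of 5552 to 9475 transcripts by tumour. Tumour 1 had the shallowest plate (612734 transcripts, against 2727191 to 3165550 for the others), lost 87 of its 130 deep enough wells to the mitochondrial limit and came from a different sequencing run by the names of the deposited tables, so run and tumour cannot be told apart there. With groups set by fixed markers, most of which had to be present in a well, 592 wells were fibroblast-like (28 of them in tumour 1), 51 smooth muscle-like, 24 pericyte-like, 21 like interstitial cells of Cajal, and 44 matched no lineage; 5 were undecided, and endothelial, epithelial and glial groups had 1 well each. The fibroblast-like wells held the collagen gene Col1a1 at 94 ± 39 and the fibroblast receptor gene Pdgfra at 6.87 ± 1.14. No well reached the B cell, T cell, follicular dendritic cell, lymphatic endothelial or myeloid rule. That limit is wide for the first 3, because the tables hold 1 of 4 B cell markers (present in 3 of the 740 wells), 1 of 4 T cell markers (17 wells) and 2 of 4 follicular dendritic cell markers (24 wells, never both).

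Cxcl12 was the most abundant of the 5 factors in fibroblast-like wells and Il7 the least. Cxcl12 stood at 17.9, 8.08, 10.1 and 9.97 in tumours 1 to 4 and was found in 81.7 ± 5.78% of wells (SD, n = 4). Tnfsf13b stood at 3.09, 0.991, 1.25 and 1.08 and was found in 41 ± 9.1% of wells. Cxcl13 stood at 1.18, 0.539, 0.536 and 1.75, in 15 ± 7.6% of wells. In words, Cxcl12 led in every tumour, whereas Tnfsf13b and Cxcl13 overlapped and changed places in tumour 4. Ccl19 stood at 0.0981, 0.732, 0.344 and 0.769, in 16.1 ± 8.32% of wells. Il7 stood at 0.392, 0.0452, 0.0695 and 0.0938, in 8.93 ± 4.24% of wells. Cxcl13 and Ccl19 overlapped, and Ccl19 lay above Il7 in every tumour but tumour 1, where Ccl19 was lowest and Il7, Tnfsf13b and Cxcl12 highest. At 3000 transcripts drawn from each of 502 wells, the shares were 75.1% for Cxcl12, 30.9% for Tnfsf13b, 10.2% for Cxcl13, 7.52% for Ccl19 and 2.97% for Il7.

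Wells outside the fibroblast-like group held less of most factors. Among 40 wells of no lineage in 3 tumours (median depth of all such wells 1956 transcripts, against 9255 in fibroblast-like wells), Cxcl12 was found in 10.4% and Cxcl13 in 2.08%. Tnfsf13b was found in 0 of all 44 such wells, which allows a share of up to 6.82% of wells. Smooth muscle-like wells (44 in 3 tumours) held Cxcl12 at 1.97 ± 0.83, Tnfsf13b at 0.786 ± 0.790, Il7 at 0.151 ± 0.133, Ccl19 at 0.0808 ± 0.140 and Cxcl13 at 0.0231 ± 0.0400. In tumours 2 to 4, Cxcl12, Cxcl13 and Ccl19 were higher in fibroblast-like than in smooth muscle-like wells in 3 of 3, and Tnfsf13b in 2 of 3. Il7 stood at 0.0452, 0.0695 and 0.0938 in fibroblast-like wells of tumours 2 to 4, against 0, 0.253 and 0.199 in smooth muscle-like wells, of which 4 held any. Il7 was thus lower in fibroblast-like wells of 2 of 3 tumours.

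**Figure D1:**
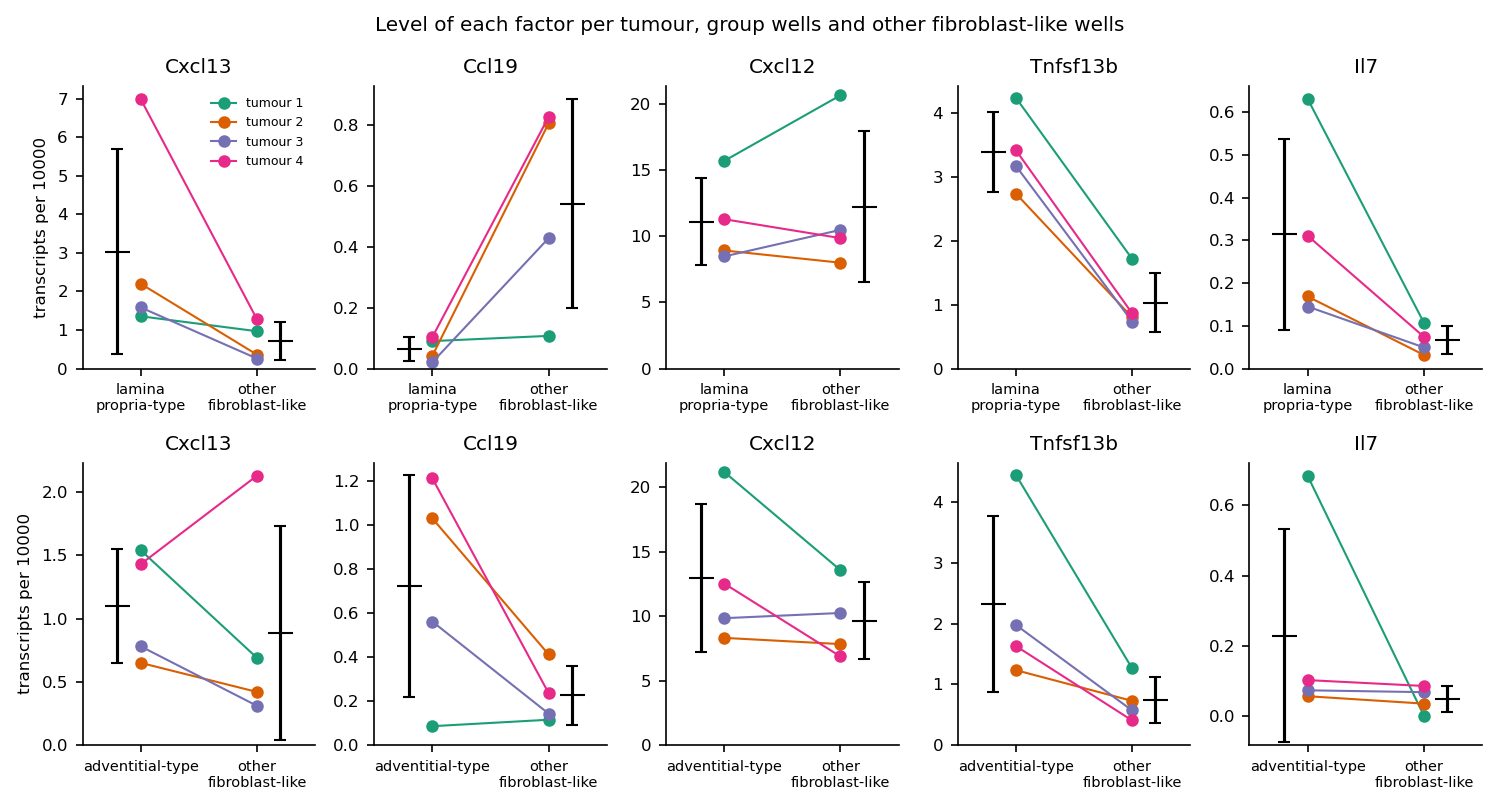
Level of each factor (transcripts per 10000, vertical axis) in lamina propria-type wells (top) or adventitial-type wells (bottom) at left and in the other fibroblast-like wells at right, 1 point and line per tumour, with black marks for mean and SD (n = 4). Lamina propria-type wells hold more Cxcl13, Tnfsf13b and Il7 than other fibroblast-like wells in 4 of 4 tumours, and less Ccl19 in 4 of 4.

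Cxcl13, the B cell chemokine, was higher in lamina propria-type wells, defined here by most of Adamdec1, Wnt4, Tcf21 and Hapln1, than in other fibroblast-like wells. In those 90 wells it stood at 1.35, 2.20, 1.58 and 6.99 in tumours 1 to 4, against 0.967, 0.360, 0.259 and 1.28 in the other fibroblast-like wells of the same tumours. It was higher in the lamina propria-type wells of all 4 tumours, the lowest of them just above the highest of the others, and the mean log2 ratio was 2.04. The means were 3.03 ± 2.66 and 0.716 ± 0.488. Contractile and matrix-making wells held less, 0.113 ± 0.0515, against 2.12 ± 1.63 in the other fibroblast-like wells of 3 tumours. Wound-type wells held 0.433 ± 0.597, against 1.53 ± 0.752, and inflammatory wells 0.282 ± 0.202, against 1.29 ± 1.19, each lower in 3 of 3 tumours. The marker rule did not take in all of the Cxcl13. Of 24 wells with at least 5 transcripts, 8 were lamina propria-type (33.3%, against 15.2% of all fibroblast-like wells). Adventitial-type wells were 15 of the 24 (62.5%, against 37.5%). Split without overlap, wells of both types held 2.32 ± 1.37 over 3 tumours, wells of the adventitial type alone 0.657 ± 0.735 over 3 tumours, and wells of neither 0.548 ± 0.315 over 4 tumours. Wells of the lamina propria type alone (33 in tumours 2 and 3) held 0.438 ± 0.554, with Cxcl13 in 3 of them, and in these tumours the wells of both types held more, 3.36 and 2.83. In tumour 4 the order was the other way, with 16.8 in 7 wells of the lamina propria type alone, too few for the mean, and 0.763 in wells of both types. The factors were picked for where they lie, so these group levels are a description with no test.

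Few wells carried most of the Cxcl13. In tumour 4, 3 wells held 140.4, 122.8 and 72.6 of 409.9 transcripts (81.9%), and the top well had 219.3 Cxcl13 transcripts per 10000. In tumour 3, 1 well held 55.4 of 123.4 transcripts (44.9%). In tumour 2, the top 3 wells held 24.1, 19.04 and 19.04 of 131.2 transcripts (47.4%). The 5 wells richest in Cxcl13 held 0 transcripts of the follicular dendritic cell genes Cr2 and Fcer2a, and 4 of the 5 held Tcf21, a transcription factor of stromal cells. Without the top well of each tumour, the ratio of adventitial-type to other wells turned negative for Cxcl13, at -0.89 on the log2 scale, against 0.64 with it.

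**Figure D2:**
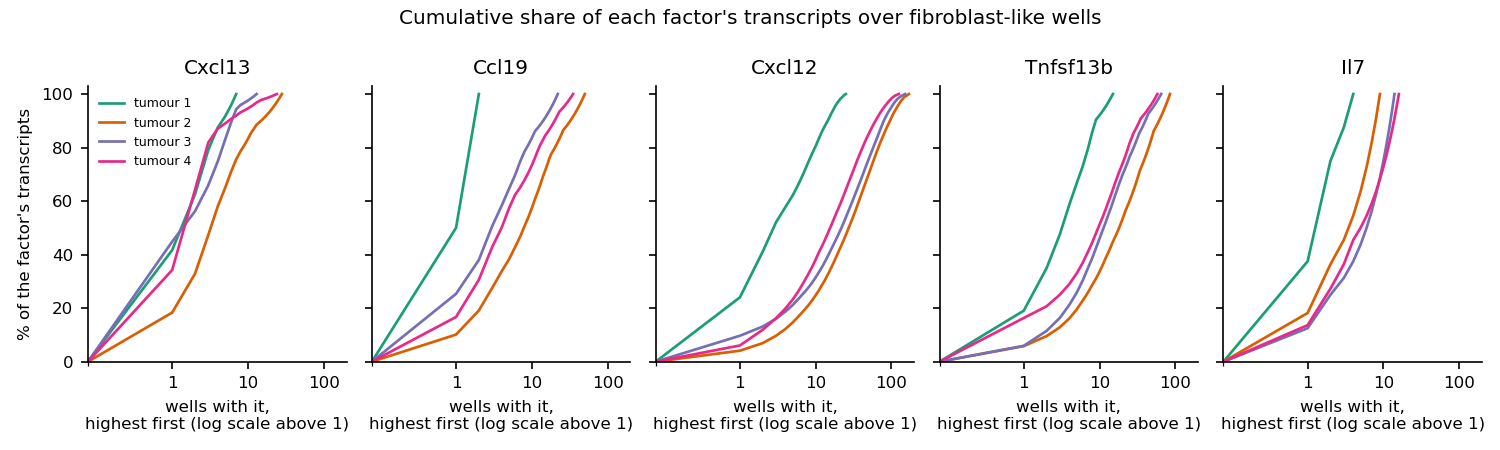
Cumulative share of the transcripts of each factor (percent, vertical axis) held by fibroblast-like wells, 1 line per tumour, ranked from the richest (horizontal axis, log scale above 1). The curve of Cxcl13 in tumour 4 reaches 81.9% with 3 wells.

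Ccl19, the T cell and dendritic cell chemokine, was high in adventitial-type wells and near absent from lamina propria-type wells. In adventitial-type wells, set by most of Pi16, Dpp4, Cd34, Ly6c1, Cd248, Sema3c and Clec3b, it stood at 0.0856, 1.03, 0.561 and 1.21 in tumours 1 to 4, against 0.115, 0.411, 0.142 and 0.235 in other fibroblast-like wells. It was higher in 3 of 4 tumours, and the exception was tumour 1 with 2 Ccl19-bearing wells. In lamina propria-type wells it stood at 0.0902, 0.0422, 0.0207 and 0.104, against 0.107, 0.807, 0.429 and 0.828 in other fibroblast-like wells, lower in 4 of 4, with 5 of 90 wells holding any and tumour 1 nearly level. Since 44 wells met both rules, the wells were also split without overlap. Wells of the adventitial type alone held Ccl19 in 72 wells (40.8 ± 10.1% of them over 3 tumours) at 1.07 ± 0.310. In tumours 2 and 3, wells of the lamina propria type alone held it in 0 of 33. That allows a share of up to 9.09% there. In tumour 4, 2 of 7 such wells held it, at 0.267, and in tumour 1, 0 of 6. Wells of both types held it in 2 of 39. Adventitial-type wells were deeper (median 13990 transcripts, against 9255 over all fibroblast-like wells), as were lamina propria-type wells (10442). The levels per 10000 are scaled for depth, whereas the shares are not. Group membership is not scaled either, because the rules count markers found at all, and its part in these levels was not tested. Pi16 stood at 3.11 ± 1.74 in adventitial-type wells and 3.50 ± 0.791 in inflammatory wells, against 1.96 ± 0.891 over all fibroblast-like wells. Of 31 wells with at least 5 Ccl19 transcripts, 26 were adventitial-type (83.9%, against 37.5% of all fibroblast-like wells) and 0 lamina propria-type. The kinds overlap. The same wells were also wound-type in 67.7% (against 35.8% of all fibroblast-like wells), contractile in 54.8% (against 36.1%) and inflammatory in 51.6% (against 21.5%). Wells of these kinds were deeper too (medians 15209, 16176 and 19645 transcripts), and the part of depth in these shares was not tested. Per 10000 transcripts, wound-type wells held Ccl19 at 0.667 ± 0.238, against 0.547 ± 0.235 in others, higher in 3 of 3 tumours. In cluster 5 (described below), led by the collagenases Mmp13 and Mmp10, 1.92% of wells held Ccl19.

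Tnfsf13b was high in both kinds of well. In lamina propria-type wells it stood at 4.25, 2.74, 3.18 and 3.42, against 1.72, 0.802, 0.737 and 0.865 in the other fibroblast-like wells, with no overlap. In adventitial-type wells it stood at 4.45, 1.23, 1.98 and 1.63, against 1.26, 0.728, 0.570 and 0.405. It was higher in 4 of 4 tumours in both comparisons, and the adventitial and other ranges met only through tumour 1, whose other wells lay above the adventitial wells of tumour 2. Contractile wells held 0.684 ± 0.162, against 1.71 ± 0.128, and wound-type wells 0.703 ± 0.272, against 1.58 ± 0.0969, lower in 3 of 3 tumours each. Of 58 wells with at least 5 transcripts, 49 were adventitial-type (84.5%, against 37.5% of all fibroblast-like wells). Lamina propria-type wells were 28 of the 58 (48.3%, against 15.2%). Both kinds were deeper than fibroblast-like wells as a whole, and the part of depth in these shares was not tested. Split without overlap, wells of both types held Tnfsf13b at 3.69 ± 0.426 over 3 tumours. Wells of the lamina propria type alone held 1.99 ± 0.0543 over 2 tumours, and of the adventitial type alone 1.24 ± 0.224 over 3. Wells of neither held 0.584 ± 0.497 over 4 tumours.

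Cxcl12 and Il7 differed in reach. Cxcl12 stood at 11.1 ± 3.30 in lamina propria-type wells, against 12.2 ± 5.70 in others, higher in 2 of 4 tumours. It was lower in contractile wells, at 7.15 ± 0.373, against 12.3 ± 1.28 in others, and higher in trophocyte-type wells, at 15.5 ± 5.88, against 8.65 ± 0.691, in 3 of 3 tumours each. Il7 was sparse: lamina propria-type wells held 0.632, 0.169, 0.145 and 0.311, against 0.107, 0.0319, 0.0495 and 0.0743 in others. These Il7 values did not overlap, though 16 of 90 lamina propria-type wells held any.

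Unsupervised clusters, built without the 5 factors or the other listed pathway genes, put most Cxcl13 and most Ccl19 in different clusters. Cluster 0 (lamina propria-type by its markers, with Edil3, Wnt4 and Hpse among its leading genes) held 68.8 to 90.6% of each tumour's Cxcl13 transcripts with 11.8 to 27.9% of its wells, at 1.34, 3.6, 1.74 and 14.8 in tumours 1 to 4. It also held 38 to 79.1% of the Tnfsf13b transcripts and 29.6 to 76.5% of the Il7 transcripts, but Ccl19 at 0.0463 ± 0.0229. Cluster 4 (71 wells, with inflammatory markers and Angptl7, Cpxm1, Emb and Ngfr in the lead) was absent from tumour 1 and held Ccl19 at 1.64, 1.46 and 1.95 in tumours 2 to 4, in 66.5% of wells as a mean over tumours, and Tnfsf13b at 1.42 ± 0.194. Cluster 1 (6.98 to 21.2% of a tumour's wells, unnamed, with Pi16, Twist1 and Hoxc10 among its leading genes) held Ccl19 at 1.46, 0.493 and 2.89 in tumours 2 to 4. Cluster 2 (98 wells, with inflammatory markers and Wisp2, Il33 and Npy1r in the lead) held 19.9, 12.3 and 9.93% of the Ccl19 transcripts of tumours 2 to 4. With tumours pooled, Cxcl13 and Ccl19 shared 8 of its wells, against 3.92 from the product of the shares. The same pair shared 5 wells in cluster 4, against 5.30, and 4 in cluster 7 (cycling), against 1.80. Cluster 2 was deep (median 14840 transcripts), and no count at equal depth was made within clusters. In words, Ccl19 was spread over clusters 4, 1 and 2, and Cxcl13 sat mainly in cluster 0. Cluster 3 (73 wells, muscle interstitial, Ces1d and Kcnn3) held Ccl19 in 0 of 73 wells, which allows up to 4.11%, and Cxcl12 at 12.2 ± 3.09. Cluster 5 (52 wells, wound-type, with the collagenases Mmp13 and Mmp10) held Cxcl12 at 0.420, 0.285 and 0.316 in tumours 2 to 4. Cluster 6 (41 wells, Inmt and Kdr) held Cxcl12 at 29.4 in tumour 3, which supplied 32 of its wells.

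**Figure D3:**
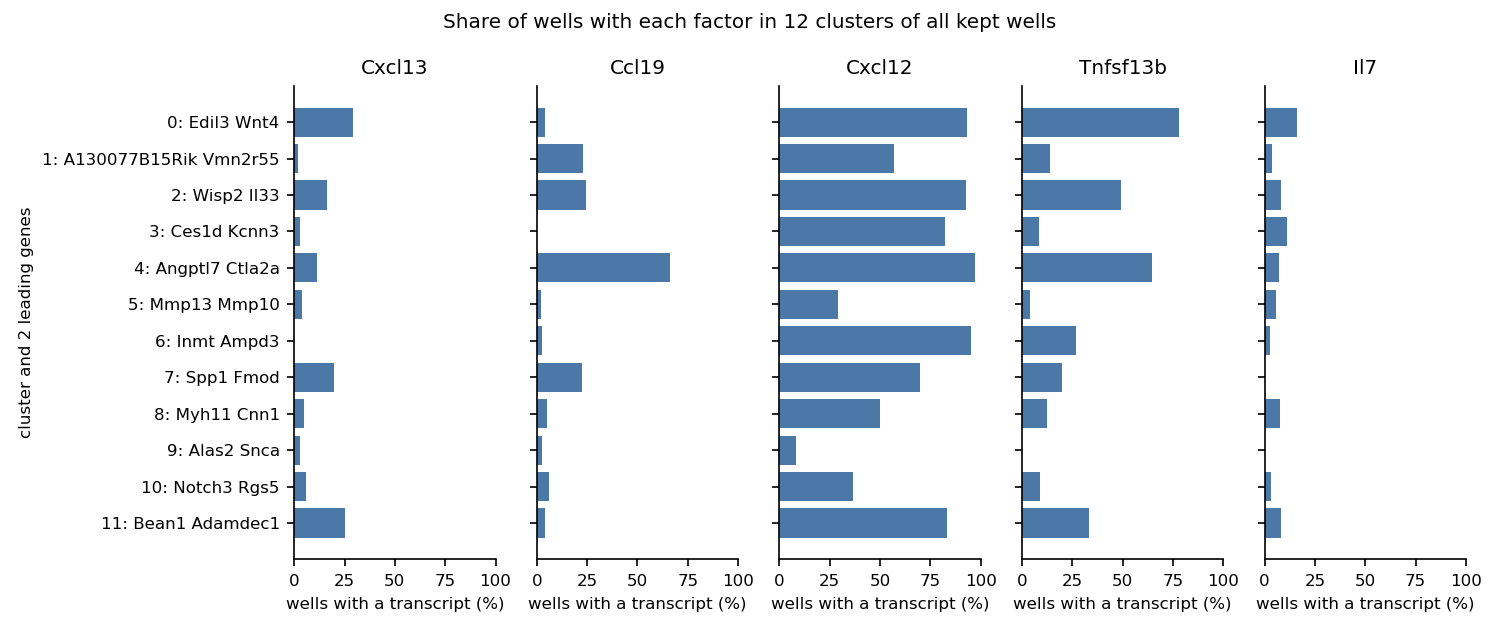
Share of wells with at least 1 transcript of each factor (percent, bars from 0) in 12 clusters of the 740 kept wells, labelled by 2 leading genes, with tumours pooled. Cxcl13 is found in 29.1% of cluster 0 and Ccl19 in 66.2% of cluster 4.

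Cxcl13 and Tnfsf13b shared wells more often than their separate shares give. Both were found in 44 of 592 fibroblast-like wells, against 28.3 from the product of the shares within each tumour. The counts by tumour were 5, 16, 7 and 16, against 3.75, 11.6, 4.25 and 8.70, above in 4 of 4. At 3000 transcripts a well, 23 wells held both, against 10.5, a ratio of 2.19. Within cluster 0 the count was 30, against 26.4 from shares pooled over tumours. Tnfsf13b was in 77.8% of the wells of cluster 0, which limits how far this ratio can rise above 1. It therefore cannot be set against the ratio over all wells. Cxcl13 and Ccl19 shared 17 wells, against 14, and at equal depth 4, against 3.99. Ccl19 and Tnfsf13b shared 64 wells, against 41.7, but at equal depth 15, against 12.3. Ccl19 and Il7 shared 6, against 7.53, and at equal depth 0, against 0.865; the shortfall came from tumour 4, where none was shared, and without tumour 4 the ratio was 1.49. For Cxcl12 and Tnfsf13b the ratio was 1.20, and 1.22 at equal depth. Most wells hold Cxcl12, which leaves this ratio little room above 1. By tumour, Tnfsf13b was in 42.1 to 60% of wells with Cxcl12, against 0 to 14.3% of wells without it. Of the 592 wells, 95 held 2 of Cxcl13, Ccl19 and Tnfsf13b and 10 held all 3. No test was run on shared wells, because wells of 1 tumour share their source.

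**Figure D4:**
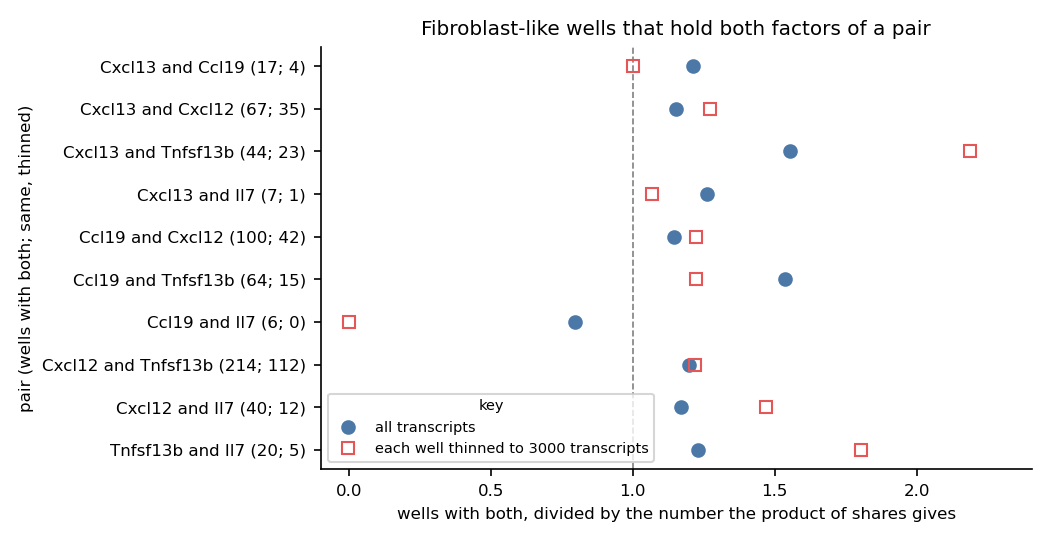
Ratio of observed wells with both factors to the number expected from the separate shares (horizontal axis, 1 means independence) for each pair, over all 592 fibroblast-like wells (filled) and at 3000 transcripts a well. Cxcl13 with Tnfsf13b stands at 1.55 and 2.19, Ccl19 with Il7 at 0.797 and 0 (1.49 over all transcripts without tumour 4). Pairs with Cxcl12 have limited room above 1, because most wells hold Cxcl12.

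Genes that set wells with a factor apart from wells without it were sought by edgeR's quasi-likelihood test on transcripts summed per tumour and arm, with tumour as a block and Benjamini-Hochberg adjustment over all genes tested. Wells with a factor were deeper than wells without it for Ccl19 (medians 14114, 13894 and 20760, against 7299, 8108 and 9464 transcripts in tumours 2 to 4), Tnfsf13b (9368, 9735, 12832 and 15898, against 3148, 7735, 6752 and 8666 in tumours 1 to 4) and Cxcl12 (9979, 9866 and 11810, against 2961, 6245 and 8640), and the part of depth in the gene calls was not tested except by the equal-depth alternative in the closing section.

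For Ccl19, 4.72% of 8713 genes passed an adjusted p of 0.05, 2.33% higher and 2.39% lower in wells with it. Apod, a secreted lipid carrier, stood at 7.08, 14.1 and 10.1 in tumours 2 to 4 with Ccl19, against 2.33, 1.45 and 1.18 without it, and was higher by 2.75 in log2 (SE 0.29, edgeR adjusted p = 0.000119, n = 3). The values with and without Ccl19 did not overlap. The nerve growth factor receptor Ngfr (log2 change 2.47), the neurotrophin receptor Ntrk2 (2.33), Cpxm1 (2.33), Rrad (2.58), Srgn (2.48), Angptl1 (2.23) and Emb (2.19) were higher too. The list of other lymphoid stroma factors gave a median of 0.58 and 3 higher and 1 lower of 10 genes tested: Ccl11 (1.60), Cxcl14 (1.20) and the alarmin Il33 (1.20) were higher, and Il34 had 3 counts with Ccl19, against 79 without, and per transcript it was 10.3 times as abundant without Ccl19 (95% counting interval 3.40 to 51). Cxcl14 and Angptl1 were not called at equal depth, Ccl11 was not called without the tumour block, and Il34 was not called by DESeq2 or without tumour 2. The equal-depth fit for Ccl19 held only tumours 2 and 4, with fewer wells with Ccl19. Leaving out tumour 3 alone kept Cxcl14 and Angptl1 called, and the part of the fewer wells was not tested. Coch, a gene known from follicular dendritic cells, stood at 0.494, 0.837 and 1.14 with Ccl19, against 0.0506, 0.207 and 0.0190 without, higher by 3.37 (adjusted p = 0.000682), the 1 of 7 reticular markers that was called, and it was not called among wells of at least 5000 transcripts (adjusted p = 0.148). Mmp13 (-5.37), Mmp10 (-5.25), Col7a1 (-4.83), Ces1d (-4.80) and Mmp9 (-4.45) were lower, though Mmp9 was not called without the tumour block. The lymphotoxin and NF-kB list gave 0 of 10 calls, with 3 at an unadjusted p under 0.05 and a median of 0.13, against 0.01 over all genes. On simulated data the same test recovered 9.2% of 2-fold changes for Ccl19, so 0 calls cannot exclude changes of that size. Of 15 dissociation stress genes, Atf3 (0.84) and Zfp36 (0.80) were higher, but were not called at equal depth. Both were called when tumour 3 alone was left out. Without the tumour block 2.88% of genes passed, without tumour 4, 2.49%, and at equal depth 3.21%; of the genes called and fitted again at equal depth, 48.5% were called again.

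For Tnfsf13b, 3.07% of 8449 genes passed, 1.7% higher and 1.36% lower. Edil3 was higher by 2.56, Chl1 by 1.96, the cytokine Il6 by 1.92 and the complement gene C4b by 1.55. Vcam1, the integrin ligand of lymphocytes on reticular cells, stood at 1.85, 2.35, 1.25 and 1.89 in tumours 1 to 4 with Tnfsf13b, against 1.03, 0.582, 0.473 and 0.727 without, higher by 1.56 (SE 0.19, edgeR adjusted p = 0.000103, n = 4). The Vcam1 values did not overlap. Of the other lymphoid stroma factors 4 of 10 were higher (median of the list 0.58, against 0.02 over all genes): Cxcl10 (1.96), Il33 (1.34), Csf1 (0.79) and Ccl11 (0.76). Of the reticular markers 4 of 6 were higher, with Vcam1, Ch25h (1.61), Enpp2 (0.96) and Pdpn (0.76). Over the alternatives that fitted them, Vcam1 was called in 12 of 12, Enpp2 in 10 of 12, Pdpn in 8 of 12 and Ch25h in 3 of 10. With 1 tumour left out, Ch25h was called in 0 of 3 fits and Pdpn in 2 of 4. Csf1 and Ccl11 were each called in 1 of 4 such fits. At equal depth Cxcl10, Il33, Csf1, Ccl11 and Pdpn were not called, and over all genes called and fitted again 49.1% were called again. Of 2 receptor genes tested, Ccrl1 (Ackr4, which scavenges Ccl19) was lower at 0, 0.0350, 0.0290 and 0.0563, against 0.344, 0.264, 0.466 and 0.484, a log2 change of -3.31. The lymphotoxin and NF-kB list gave 0 of 10, with 2 at an unadjusted p under 0.05. Simulated 2-fold changes were recovered in 16% for Tnfsf13b, so 0 calls cannot exclude changes of that size. Cyp26b1 (-3.49), Inhba (-2.74) and Lrrc15 (-2.59) were lower. Without the tumour block 0.308% of genes passed in place of 3.07%, and of the 22 genes named by rule 5 did: Vcam1, Ccrl1, Cyp26b1, Serpina3n and Beta-s. Without tumour 3, 1.31% passed, and without tumour 4, 1.19%. Dissociation stress genes gave 0 of 15 calls and 6 at an unadjusted p under 0.05.

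For Cxcl12, 6.08% of 8569 genes passed, 3.29% higher and 2.79% lower. Ces1d (4.50), Figf (3.14), Cpxm1 (2.84), Serpina3n (2.80) and Rarres2 (2.73) were higher. Csf1, the macrophage growth factor, stood at 2.13, 2.03 and 2.83 with Cxcl12, against 1.06, 1.17 and 1.02 without, higher by 1.09 (edgeR adjusted p = 0.00787, n = 3). The lymphoid stroma list gave 4 of 10 higher (median 1.15, against 0.01 over all genes), with Kitl (1.21), Il33 (1.44), Csf1 and Flt3l (95 counts with Cxcl12, against 1 without, 15.6 times as abundant per transcript, counting interval 2.74 to 624). Dissociation stress genes moved with Cxcl12: 11 of 15 were higher, such as Fos (0.98), Egr1 (1.05) and Jun (0.90), and Ier3 was lower (-0.89); their part in the result was not tested. Without tumour 4, 2.44% of genes passed, and Csf1, Kitl, Flt3l, Fos, Jun and Ier3 were among 12 of 29 named genes that did not. At equal depth Csf1, Flt3l and Beta-s were not called, and without the tumour block Il33, Fos, Ier3 and Beta-s were not. The lymphotoxin and NF-kB list gave 0 of 10, with 2 at an unadjusted p under 0.05. Simulated 2-fold changes were recovered in 4.49% for Cxcl12, so 0 calls cannot exclude changes of that size. Stc1 was lower (-4.96). The beta-globin transcript Beta-s was lower in wells with Cxcl12, at 19.6 ± 30, against 242.2 ± 129.4, and likewise with Tnfsf13b and Cxcl13. Of the 592 wells, 17 held over 1% red cell transcripts, and their part in these calls was not tested.

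For Cxcl13, 4 of 8810 genes passed (0.0454%), all lower, with 396 at an unadjusted p under 0.05 and 15 by DESeq2. They were Beta-s (-4.07), Stc1 (-3.87), Alas2 (-3.75) and Myoc (-3.82), the last named after its value was seen. Without tumour 4, without the tumour block or with wells of at least 5000 transcripts, 0 genes passed. With at least 3 Cxcl13 transcripts against none, an alternative added after the values were seen that only tumours 2 and 4 allowed, 1.87% of 8520 genes passed, 0.587% higher and 1.28% lower. Tcf21 stood at 5.46 and 3.29 with Cxcl13, against 0.603 and 0.865 without, higher by 2.36. Adamdec1, a metalloprotease of the lamina propria, stood at 14.7 and 12.6, against 2.53 in each tumour, higher by 2.26. Vtn (2.89), Nkx2-3 (2.33), Hpse (2.26), Pitx1 (2.03), the adhesion genes Vcam1 (1.51) and Icam1 (1.31) and Socs3 (1.21) were higher. Mmp13 was lower by 5.58 in log2, and Angptl7 had 1 count with Cxcl13, against 956 without it, 62.8 times as abundant per transcript without Cxcl13 (counting interval 11.2 to 2483). Lrrc15, a matrix fibroblast gene, had 0 counts with Cxcl13, which makes it at least 9.70-fold lower at a floor of 3 counts over the arm. Of 7 reticular and follicular markers, Vcam1 and Icam1 were the 2 higher, and Coch was the 1 lower, with 0 counts with Cxcl13, at least 3.09-fold lower at the same floor. The lymphotoxin and NF-kB list gave 0 of 10 by edgeR in the first comparison, with 0 at an unadjusted p under 0.05, and 0 of 11 here. In the first comparison, simulated 2-fold changes were recovered in 4.49%, so 0 calls there cannot exclude changes of that size.

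For Il7, 27 of 9022 genes passed (0.299%), 2 higher (0.0222%) and 25 lower (0.277%), in tumours 3 and 4, with 1 residual degree of freedom. Ces1d (1.37) and Kera (3.54), named after its value was seen, were higher. Mmp10 had 3 counts with Il7, against 4760 without it, 167.96 times as abundant per transcript without Il7 (counting interval 57.4 to 815). Of the lymphoid stroma list, Cxcl14 (-1.30) was lower, and so was Cxcl10, 19.6 times as abundant without Il7 (5.4 to 162.7). Without the tumour block 0.0665% of genes passed, and Ces1d, Cxcl14 and Cxcl10 were called neither there nor by DESeq2. With 1 of these tumours left out, no test was made for Il7.

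**Figure D5:**
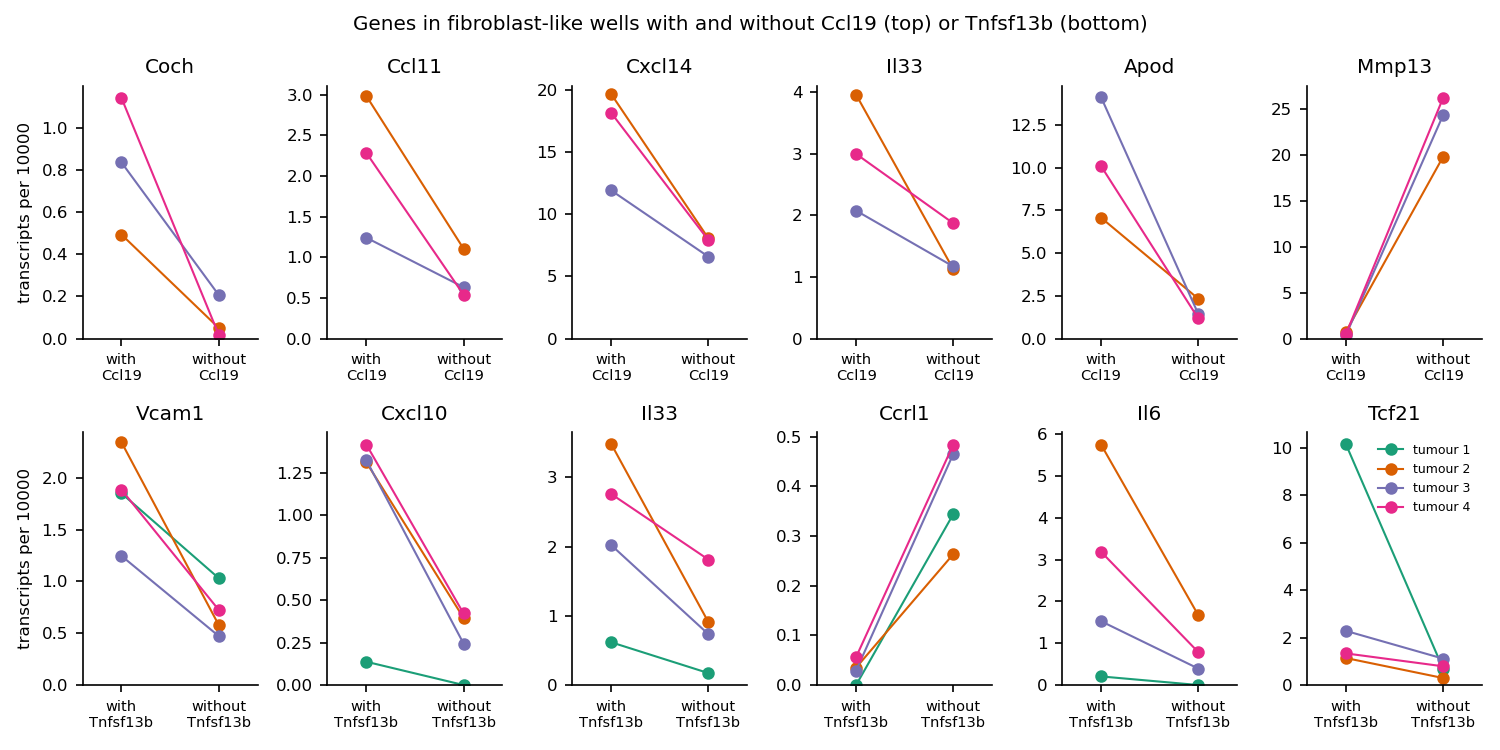
Level of genes named by rule (transcripts per 10000, vertical axes from 0) in fibroblast-like wells with Ccl19 (top) or Tnfsf13b (bottom) at left and wells without it at right, 1 line per tumour. Apod and Coch are higher with Ccl19, and Vcam1 and Tcf21 with Tnfsf13b, in every tumour of the comparison.

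Across wells within a tumour, averaged over tumours 2 to 4 (564 wells, 7988 genes), the pattern most like Cxcl13 was that of Hgf (mean r = 0.365), then Slco2b1, Hpse, Serpina3m and Tcf21. Most like Ccl19 was Apod (0.409), then Cpxm1, Darc, Ntrk2 and Srpx; most like Cxcl12 was C1ra (0.532), then Svep1, Gsn, Dcn and Rarres2; and most like Tnfsf13b was C4b (0.508), then Ugcg, Edil3, Igfbp4 and Ecm1. For Il7 the highest value was 0.233 (Glcci1), a weak likeness. The wells share depth and library, so these are descriptions.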

How the data were processed

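Plates of single cells were read out by CEL-Seq2, and per the submitters' processing notes reads were handled with BWA and the mm10 build. The values the authors deposited are estimated counts per gene and well, which the values show to be identifier counts corrected for saturation over 4096 identifiers; they were rounded to whole numbers after summing. ERCC spike-in entries were left out of totals. The members and gene lists were chosen with earlier results of these data known.

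Wells with at least 1000 transcripts and at most 30% chrM were kept. Groups needed more of their fixed markers present than absent, and a well could belong to several fibroblast kinds. Doublets were not called. Plates use the same well labels by design, and counts of no pair of plates agreed within sampling noise. Clusters used 1500 variable genes without the members and list genes, 20 components, 15 neighbours and Leiden (leidenalg 0.10.2, resolution 1).

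Transcripts of wells with and without a factor were summed per tumour (tumours with at least 10 wells in each arm, as in each group level) and tested with edgeR 4.0.16 (quasi-likelihood, tumour as block, adjusted p under 0.05). The block pairs arms of the same tumour. It left 2 residual degrees of freedom for Cxcl13, Ccl19 and Cxcl12, 3 for Tnfsf13b and 1 for Il7, and edgeR moderates variances across genes. Genes passing are given as a percentage of genes tested. DESeq2 1.42.0, other filters, depths and left-out tumours were alternatives. Named genes were the members, list genes called, the 8 highest and 5 lowest called fold changes at a mean of at least 1, and the 5 most alike by correlation. Pipelines were tested on simulated data. The edgeR fit recovered 4.49% of 2-fold changes for Cxcl13, 9.2% for Ccl19, 4.49% for Cxcl12, 16% for Tnfsf13b and 1.02% for Il7. For 4-fold changes it recovered 51.6%, 82.4%, 62.8%, 84.3% and 25%, in the same order. Promoters come from RefSeq and gene positions from GENCODE M 21. Intervals are 95% exact and cover counting error only, with a floor of 3 counts.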

Additional observations from a re-analysis of the deposited data

Results flagged for a closer look

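In fibroblast-like wells, Tnfsf13b stood at 3.09 in tumour 1, against 0.991 to 1.25 in the other tumours, and Il7 at 0.392, against 0.0452 to 0.0938. In adventitial-type wells, Il7 stood at 0.685 in tumour 1, against 0.0554 to 0.101. In lamina propria-type wells, Cxcl13 stood at 6.99 in tumour 4, against 1.35 to 2.20. In each case 1 tumour lay far from the other 3, in 4 of 15 such groups of 4 tumours examined. The groups share wells, so this count cannot be set against the chance rate of about 1 in 20 for a single group. Except for Cxcl13, the outlying tumour was tumour 1, from a different sequencing run and with 28 fibroblast-like wells.

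The 87 wells of tumour 1 over the mitochondrial limit entered no comparison and still held Cxcl13 at 1.20 (21 transcripts in 6 wells), Cxcl12 at 2.96 and Tnfsf13b at 0.285 per 10000.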

How the results depend on the processing

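Of the levels, shares, ratios and counts recomputed under the alternatives, 86.3% kept the sign of the reported value and lay within 1 SD between tumours of it (counts of genes within 1.5 times), 12.1% moved further and 1.56% changed sign. The 86.3% includes checks that could not count as moved. Leaving out 1 tumour cannot shift a mean level, share or log2 ratio by 1 SD of the same tumours, so there only a change of sign could show. The SD is also wide for sparse factors, and some values within it moved by over 1.5 times. Without tumour 1 the Il7 level was 0.0695, in place of 0.150. Without tumour 4 the shared-well ratio of Ccl19 and Il7 was 1.49, in place of 0.797. Without the top well of each tumour the Cxcl13 level was 0.655, and its lamina propria ratio in log2 1.27, in place of 2.04; at a mitochondrial limit of 20% that ratio was 2.66. The lamina propria ratio of Ccl19, -2.97 as reported, lay between -3.61 and -3.88 in 4 alternatives, among them -3.88 without tumour 1. The changes of sign concern ratios near 0 or few wells. The log2 ratio of Cxcl12 in lamina propria-type over other wells, -0.09 as reported, was 0.014 at a mitochondrial limit of 20%, 0.15 without the top well of each tumour and 0.15 with groups from clusters, and ranged from -0.18 to 0.015 when 1 tumour was left out. That of Cxcl13 in adventitial-type wells was -0.89 without the top wells. With groups from clusters, the lamina propria ratio was 4.06 for Cxcl13 and 2.4 for Tnfsf13b. At 3000 transcripts a well, shares of wells fell to 7.52% for Ccl19, 75.1% for Cxcl12, 30.9% for Tnfsf13b and 2.97% for Il7, and shared-well ratios were 1.27 (Cxcl13 and Cxcl12), 2.19 (Cxcl13 and Tnfsf13b), 1.22 (Ccl19 and Cxcl12), 1.47 (Cxcl12 and Il7) and 1.81 (Tnfsf13b and Il7).

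Shares of genes passing depended on the fit. Without the tumour block (the pairing of arms within a tumour), 0% passed for Cxcl13, 2.88% for Ccl19, 0.308% for Tnfsf13b and 0.0665% for Il7. DESeq2 was run on more genes than edgeR, 15597 (15098 for Il7), so its percentages have a larger base. It gave 0.0962% for Cxcl13, 1.21% for Ccl19, 2.21% for Cxcl12 and 0.0861% for Il7. Of the genes edgeR called, DESeq2 called 45.3% again for Ccl19 and 59.1% for Cxcl12. With no filter on low counts, a larger set of genes gave 0.744% for Cxcl13, 4.59% for Ccl19, 5.83% for Cxcl12, 3.59% for Tnfsf13b and 0.815% for Il7. At equal depth the shares were 1.27% for Cxcl13, 3.21% for Ccl19, 3.57% for Cxcl12 and 2.42% for Tnfsf13b. Those for Cxcl13 and Ccl19 came from tumours 2 and 4 only. With wells of at least 5000 transcripts, the shares were 0% for Cxcl13 and 0.532% for Il7. Cxcl13 gave 0.0227% with RLE size factors and 0.0229% with whole identifiers, and arms of at least 3 transcripts, added after the values were seen, gave 1.87% for Cxcl13 and 6.34% for Tnfsf13b. Leaving out 1 tumour gave 0 to 0.184% for Cxcl13, 2.49 to 4.78% for Ccl19, 2.44 to 6.88% for Cxcl12 and 1.19 to 3.96% for Tnfsf13b. The causes were not tested. Of the values of named genes, 87.04% stayed past the threshold, 12.96% did not and 0 reversed. Il7 could not be fitted with a tumour left out or at equal depth.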
